A study of Mus musculus with 6 samples.

Results

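The genes followed here control the passage of a cell from G1, the phase before DNA is copied, into S phase. They are the 3 D cyclins (Ccnd1, Ccnd2 and Ccnd3), the kinases Cdk4 and Cdk6 that these cyclins switch on, the CDK inhibitors Cdkn1a (p21), Cdkn1b (p27) and Cdkn2c (p18), and the downstream pair Rb1 and E2f1. They were chosen by symbol, and all 10 were found among the 23367 gene entries of the deposited table. The tissue was gastrocnemius, a calf muscle, from FVB wild type mice, and polyA RNA was sequenced in 6 libraries at 5 stages. RNA was pooled from several embryos of both sexes for E18.5 and from several male pups for PN2 (postnatal day 2), whereas each PN14 library (replicates 1 and 2), the PN28 library and the adult library (22 weeks) came from a single male mouse. No treatment or altered allele was used, so age is the only labelled difference between the groups, along with the mixed sex of the E18.5 pool.

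In a dividing cell, D cyclins bind CDK4 or CDK6 and the complexes phosphorylate the retinoblastoma protein, the product of Rb1. Phosphorylated retinoblastoma protein releases E2F transcription factors such as E2F1, which turn on genes for DNA replication. p21 and p27 act on cyclin-CDK complexes, while p18 belongs to the INK4 family and binds CDK4 and CDK6 themselves. Myoblasts leave the cell cycle for good when they fuse into myofibres. p21, cyclin D3 and the retinoblastoma protein are all known to accumulate as they do so, and a pool of satellite cells stays able to divide.

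In GENCODE M1 models of mm9, the build the authors aligned to, Ccnd1 lies on chromosome 7 (152115836 to 152125774), Ccnd2 on chromosome 6 (127075797 to 127101066) and Ccnd3 on chromosome 17 (47642000 to 47736632). Cdk4 lies on chromosome 10 (126500590 to 126504976) and Cdk6 on chromosome 5 (3343893 to 3523218). Cdkn1a lies on chromosome 17 (29227924 to 29237667), Cdkn1b on chromosome 6 (134870419 to 134875531) and Cdkn2c on chromosome 4 (109333481 to 109339794). Rb1 lies on chromosome 14 (73583480 to 73725629) and E2f1 on chromosome 2 (154385143 to 154395628). Exons of a protein-coding gene on the opposite strand overlap those of Ccnd1 (Oraov1, 818 bases), Ccnd3 (Bysl, 353), Cdk4 (Tspan31, 604), Cdk6 (Gm17590, 60) and Rb1 (Rcbtb2, 488, and Lpar6, 408). The sources used here do not state that strand was used in counting, so fragments from these stretches cannot be told apart.

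E2F proteins bind a short DNA element, and the genes here both release E2F and are among those it can act on, so the DNA around each annotated 5′ end (250 bases before it and 50 from it on) was read from the mm9 genome. The octamers TTTCCCGC, TTTCGCGC, TTTGCCGC and TTTGGCGC were searched on both strands. Of the 10 genes, 2 held a match, E2f1 with 2 matches that do not overlap each other and Rb1 with 1. The windows below, shown because they are the matches in these genes, run 5′ to 3′ on the gene's own strand, which is the minus strand for both, with the octamers in capitals.

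E2f1, chr2:154395601-154395628: tttcGCGGCAAAaaggaTTTGGCGCgta

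Rb1, chr14:73725610-73725637: gaagtgacgtTTTCCCGCggttggcccg

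The first E2f1 match begins 4 bases after the annotated 5′ end, and the Rb1 match begins 2 bases after it. The same search found a match for 3.53% of 15146 genes tested for expression and for 9 of 25 S-phase genes that E2F is known to drive (36.0%). A match is a description of letters and not of binding, and an absent match says nothing about E2F at the other 8 genes.

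Each library held between 125402932 and 157868359 counts on genes, so 3 counts correspond to at most 0.0239 CPM (counts scaled to library size). Levels and fold changes are measured differently below. FPKM, which the authors scaled to gene length and library, serves for levels and for comparing genes within a library. Fold changes come from the counts after TMM scaling, tested with edgeR's quasi-likelihood method in a fit of all 6 libraries (16882 genes), and a gene was called at a Benjamini-Hochberg adjusted p under 0.05 and at least a 2-fold difference. Only PN14 has 2 libraries, so its spread stands in for that of every stage. The 20 most abundant genes took 16.0% of counts at E18.5 and 36.9% in the adult. With library size alone the median of all genes was a log2 fold change of -0.66 from PN2 to PN14 and -1.08 from E18.5 to adult, against -0.01 and -0.05 with TMM.

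Most of these genes fell between PN2 and PN14, and only E2f1 was called in any of the other intervals between neighbouring stages, a call that was lost when genes averaging under 1 CPM were left out. Ccnd3, Cdkn1a and Cdk4 were the highest of the 10 genes at E18.5 and PN2. Cdkn1b had nearly the same FPKM at all ages. From PN2 to PN14, 6 of the 10 genes fell and 0 rose, with a median log2 fold change of -1.04, where 11.2% of all genes tested fell, 11.8% rose and 23.0% were called in either direction. Of the 10, 8 fell with library size alone, where 4971 of 16882 genes fell, and 7 when genes averaging under 1 CPM were left out. From E18.5 to adult 7 fell and 0 rose, with a median of -2.40, where 23.6% of all genes fell, 21.4% rose and 44.9% were called.

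**Figure D1:**
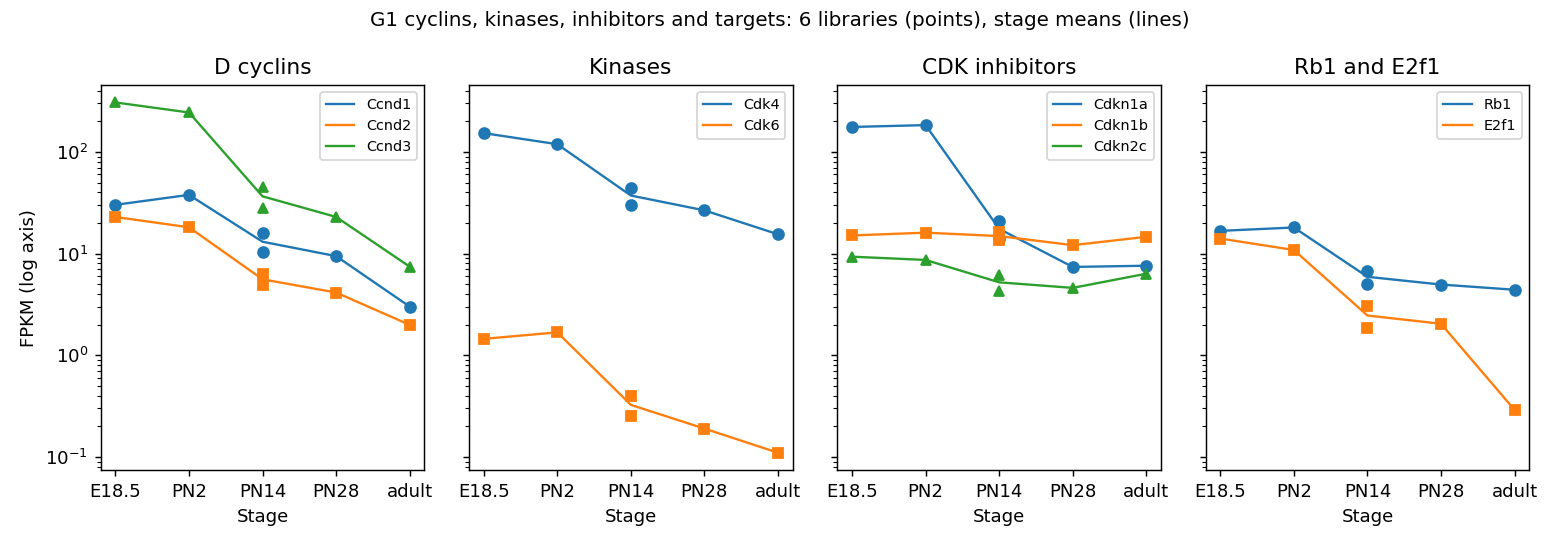
FPKM (log axis) of the 10 genes at 5 stages, in panels by role; points are the 6 libraries and lines join stage means, with 2 libraries at PN14 and 1 at each other stage. Ccnd3 goes from 307 at E18.5 to 7.44 in the adult, while Cdkn1b stays between 12.1 and 16.2.

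Among the D cyclins, Ccnd3 was the most abundant in all 6 libraries. Its FPKM was 307 in the E18.5 pool and 244 in the PN2 pool, 28.4 and 44.8 in the PN14 mice, 22.9 in the PN28 mouse and 7.44 in the adult. Both PN14 libraries lay far below PN2, and the adult lay below PN28. Ccnd3 fell 4.30-fold from PN2 to PN14 (log2 fold change -2.10, standard error 0.251, edgeR quasi-likelihood adjusted p = 0.00578) and 20.2-fold from E18.5 to adult (log2 fold change -4.33, standard error 0.346, adjusted p = 0.00123 by edgeR).

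Ccnd1, the D cyclin best known as a target of growth factor signalling, measured 30.2 FPKM in the E18.5 pool and 37.8 in the PN2 pool, 10.3 and 15.9 in the PN14 mice, 9.44 in the PN28 mouse and 3.01 in the adult. PN2 was its highest library and the adult its lowest. Its log2 fold change from PN2 to PN14 was -0.89 (standard error 0.209, edgeR adjusted p = 0.0264), which is short of the 2-fold rule. It was -1.53 and called with library size alone. From E18.5 to adult it fell by 2.30 on the log2 scale (standard error 0.262, adjusted p = 0.00185 by edgeR).

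Ccnd2 was the least abundant D cyclin per length. Its FPKM was 22.9 in the E18.5 pool and 18.1 in the PN2 pool, 4.88 and 6.29 in the PN14 mice, 4.14 in the PN28 mouse and 1.99 in the adult, so no library was higher than the one before it in age except between the PN14 mice. It fell in both comparisons, with a log2 fold change of -1.05 from PN2 to PN14 (standard error 0.168, edgeR adjusted p = 0.0102) and of -2.50 from E18.5 to adult (standard error 0.212, edgeR adjusted p = 0.00124). The first of these is close to the 2-fold threshold, and with PN14 replicate 2 alone the value was -0.999.

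The make-up of the D cyclin pool can be read within a library, where no scaling between libraries is needed. Ccnd3 made up 85.2% of the summed D cyclin FPKM at E18.5 and 81.4% at PN2, then 65.1% and 66.9% in the PN14 mice, 62.8% in the PN28 mouse and 59.8% in the adult. The PN14 replicates differed from each other by much less than either differed from PN2. The sum itself was 360 FPKM in the E18.5 pool and 300 in the PN2 pool, 43.6 and 66.9 in the PN14 mice, 36.5 in the PN28 mouse and 12.4 in the adult. The share of Ccnd1 was 8.39% at E18.5, 12.6% at PN2 and between 23.7% and 25.9% from PN14 on, and that of Ccnd2 was highest in the adult, at 16.0%. These shares are descriptions without a test.

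**Figure D2:**
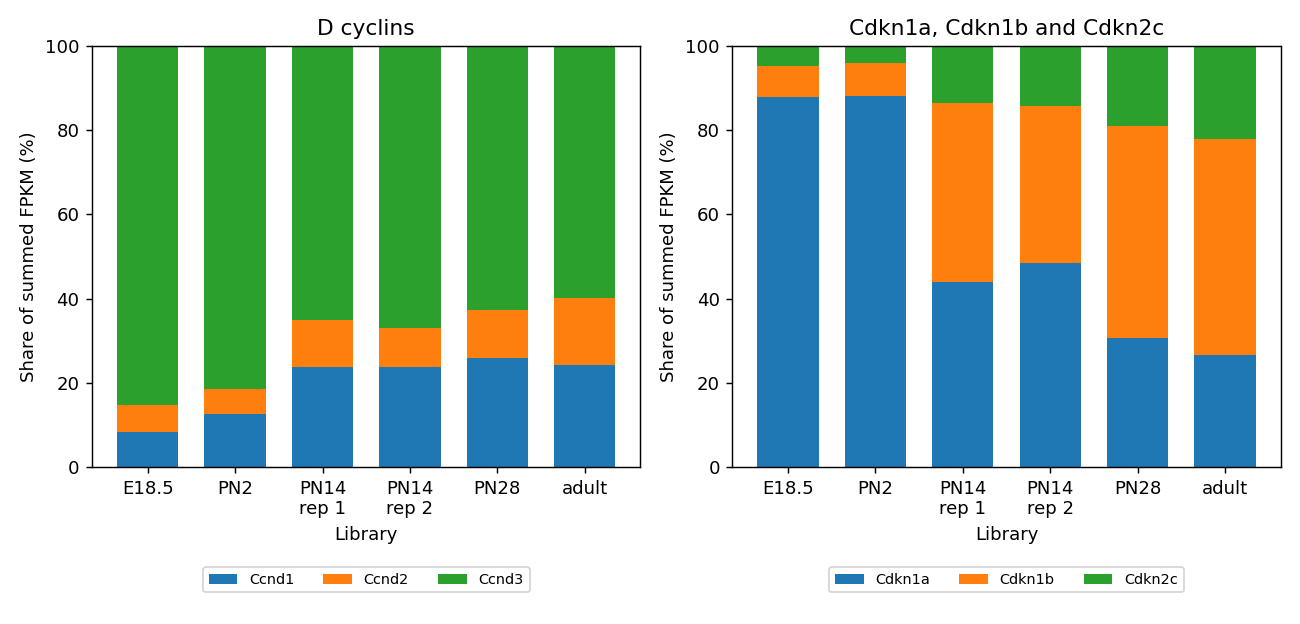
Share of each gene in the summed FPKM (%) of the 3 D cyclins (left) and of Cdkn1a, Cdkn1b and Cdkn2c (right), 1 bar per library. Ccnd3 goes from 85.2% to 59.8% of the D cyclins, and Cdkn1a from 87.8% to 26.6% of these inhibitors.

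Of the kinases, Cdk4 accounted for almost all of the RNA. It had 153 FPKM in the E18.5 pool and 119 in the PN2 pool, 30.0 and 44.5 in the PN14 mice, 26.6 in the PN28 mouse and 15.5 in the adult, so every library from PN14 on was below both earlier ones. Cdk4 fell by 1.04 on the log2 scale from PN2 to PN14 (standard error 0.203, edgeR adjusted p = 0.0165), and had a log2 fold change of -2.28 from E18.5 to adult (standard error 0.254, edgeR adjusted p = 0.00180). With PN14 replicate 2 alone the PN2 to PN14 value was -0.89, under the 2-fold rule.

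Cdk6, the other partner of the D cyclins, was at 1.45 FPKM in the E18.5 pool and 1.68 in the PN2 pool, 0.25 and 0.40 in the PN14 mice, 0.19 in the PN28 mouse and 0.11 in the adult. Its counts ran from 637 at PN2 to 38 in the adult, where an exact Poisson interval for counting error alone reaches from 26.9 to 52.2. It fell by 1.75 on the log2 scale from PN2 to PN14 (standard error 0.348, edgeR adjusted p = 0.0173) and had a log2 fold change of -2.69 from E18.5 to adult (standard error 0.462, edgeR adjusted p = 0.00523). Cdk4 stood 70.9 times above Cdk6 in FPKM at PN2, the library where the gap was smallest, and 141 times above it in the adult.

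Cdkn1a, which encodes the p53-inducible inhibitor p21, had the steepest fall of the 10 genes from PN2 to PN14. It measured 176 FPKM in the E18.5 pool and 184 in the PN2 pool, 14 and 21.03 in the PN14 mice, 7.39 in the PN28 mouse and 7.60 in the adult. The early libraries were alike, both PN14 libraries were far lower, and PN28 and adult were alike at a lower level still. Cdkn1a fell 6.73-fold from PN2 to PN14 (log2 fold change -2.75, standard error 0.215, edgeR adjusted p = 0.00317) and 11.4-fold from E18.5 to adult (log2 fold change -3.51, standard error 0.283, edgeR adjusted p = 0.00123). From PN14 to PN28 its log2 fold change of -0.996 was not called (edgeR adjusted p = 0.447), but with library size alone it was -1.24 and called (adjusted p = 0.0167).

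Cdkn1b, the gene for p27, varied little in FPKM. Its FPKM was 15.1 in the E18.5 pool and 16.1 in the PN2 pool, 13.5 and 16.2 in the PN14 mice, 12.1 in the PN28 mouse and 14.6 in the adult, and the PN14 libraries lay on both sides of PN2. With TMM its log2 fold change was 0.54 from PN2 to PN14 (standard error 0.170, edgeR adjusted p = 0.0575) and 0.98 from E18.5 to adult (standard error 0.194, edgeR adjusted p = 0.00818, short of the 2-fold rule). With library size alone the signs turned, to -0.11 and -0.04. Whether Cdkn1b was level or higher with age therefore depends on the scaling, but it stood above the median of all genes under both.

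Cdkn2c, the gene for p18, was the lowest of the 3 inhibitors followed here in all libraries. It had 9.32 FPKM in the E18.5 pool and 8.66 in the PN2 pool, 4.27 and 6.16 in the PN14 mice, 4.6 in the PN28 mouse and 6.34 in the adult, and the adult value lay above that of PN28 and of both PN14 mice. It was not called in any comparison. Its log2 fold change from PN2 to PN14 was -0.09 (standard error 0.243, edgeR adjusted p = 0.800), and from E18.5 to adult TMM gave 0.47 where library size alone gave -0.56.

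Among these 3 inhibitors the leading gene was not the same at all ages. Cdkn1a made up 87.8% of the summed FPKM of the 3 inhibitors at E18.5 and 88.1% at PN2, then 44.1% and 48.4% in the PN14 mice, 30.7% in the PN28 mouse and 26.6% in the adult. Cdkn1b went from 7.52% at E18.5 to 51.2% in the adult and Cdkn2c from 4.65% to 22.2%. Per length, Cdkn1a stood 11.7 times above Cdkn1b at E18.5, and the order was the opposite at PN28 and in the adult, where Cdkn1b stood 1.64 and 1.92 times above Cdkn1a. At PN14 the ratio of Cdkn1b to Cdkn1a was 0.965 in replicate 1 and 0.772 in replicate 2, and both lay between the ratios of the earlier and the later stages. By CPM in place of FPKM, Cdkn1b led in replicate 1 (51.0% against 41.7% for Cdkn1a). Cdkn1a led in replicate 2 (46.6% against 45.6%), so the order at PN14 depends on the measure. These shares leave out Cdkn1c, the gene for the inhibitor p57, which was above Cdkn1a and Cdkn1b in every library but the adult. Of all 7 CDK inhibitor genes (with Cdkn1c, Cdkn2a, Cdkn2b and Cdkn2d added), Cdkn1c made up 79.6% of the summed FPKM in the E18.5 pool and 17.3% in the adult, where Cdkn1b was the highest at 31.6%.

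The ratio of these 3 inhibitors to the D cyclins, each summed in FPKM, was 0.557 in the E18.5 pool, 0.694 in the PN2 pool, 0.730 and 0.649 in the PN14 mice and 0.660 in the PN28 mouse. PN2 and PN28 lay between the PN14 mice, and E18.5 lay below them. In the adult the ratio was 2.30, with 28.6 FPKM of inhibitors against 12.4 of D cyclins. This contrast depends on the genes summed. With all 7 CDK inhibitor genes, a sum added after the values were seen, the ratio was 3.17 in the E18.5 pool, 2.42 in the PN2 pool, 3.01 and 3.71 in the PN14 mice, 2.63 in the PN28 mouse and 3.72 in the adult. The inhibitors were then the larger sum in all 6 libraries, and the adult lay next to PN14 replicate 2.

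**Figure D3:**
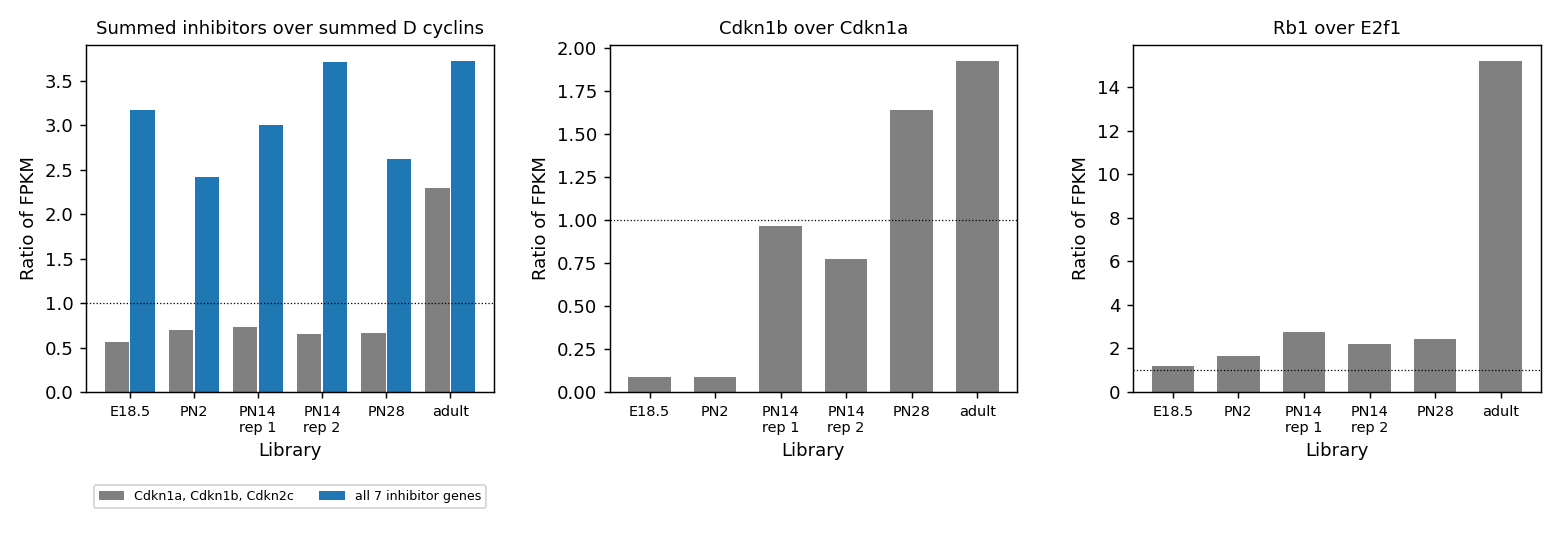
Ratios of FPKM within each library: summed CDK inhibitors over summed D cyclins (grey, the 3 inhibitors followed here; blue, all 7 inhibitor genes), Cdkn1b over Cdkn1a, and Rb1 over E2f1; the dotted line marks equal levels. With 3 inhibitors the first ratio lies between 0.557 and 0.730 in 5 libraries and is 2.30 in the adult, but with all 7 it lies between 2.42 and 3.72 in all 6. The ratio of Rb1 to E2f1 is 15.2 in the adult and between 1.19 and 2.74 in the other libraries.

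E2f1, the activator that the pathway releases, had 14.1 FPKM in the E18.5 pool and 10.9 in the PN2 pool, 1.84 and 3.08 in the PN14 mice, 2.04 in the PN28 mouse and 0.29 in the adult. Its counts ran from 5350 at E18.5 to 100 in the adult, where the exact Poisson interval is 81.4 to 122. PN28 lay between the PN14 mice and the adult lay far below them. E2f1 fell by 1.51 on the log2 scale from PN2 to PN14 (standard error 0.252, edgeR adjusted p = 0.0113) and had a log2 fold change of -2.67 from PN28 to adult (standard error 0.337, edgeR adjusted p = 0.0499), which was not called when genes averaging under 1 CPM were left out. From E18.5 to adult it fell 23.7-fold (log2 fold change -4.57, standard error 0.359, edgeR adjusted p = 0.00123), the largest fold of the 10 genes in that comparison.

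Rb1 had 16.7 FPKM in the E18.5 pool and 18.1 in the PN2 pool, 5.04 and 6.78 in the PN14 mice, 4.96 in the PN28 mouse and 4.41 in the adult, and the later 4 libraries were all close to each other. Its log2 fold change was -0.97 from PN2 to PN14 (standard error 0.172, edgeR adjusted p = 0.0131) and -0.90 from E18.5 to adult (standard error 0.206, edgeR adjusted p = 0.0138), both just short of the 2-fold rule. With library size alone the values were -1.61 and -1.92 and were called. The ratio of Rb1 to E2f1 in FPKM was 1.19 in the E18.5 pool and 1.66 in the PN2 pool, 2.74 and 2.20 in the PN14 mice, 2.43 in the PN28 mouse and 15.2 in the adult.

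**Figure D4:**
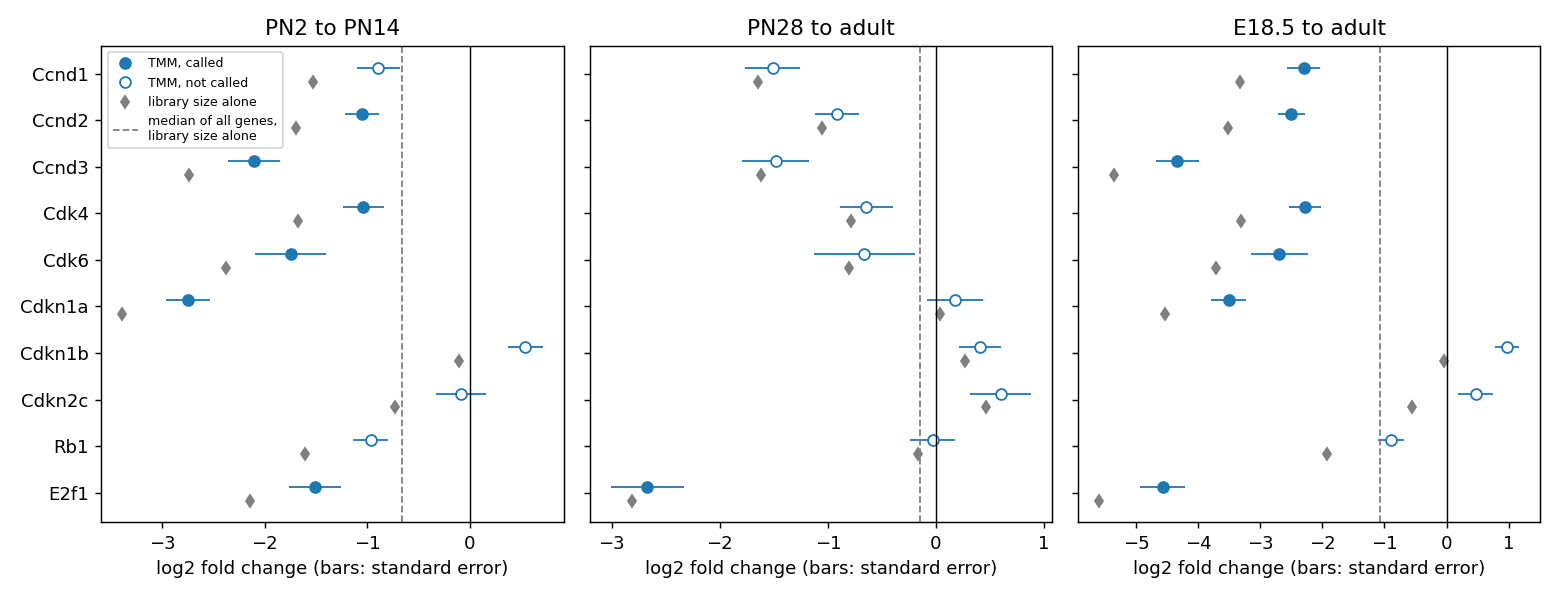
Log2 fold changes of the 10 genes in 3 comparisons; circles are the TMM fit with its standard error (filled where called), grey diamonds use library size alone, and the dashed line is the median of all genes under library size alone. Ccnd3, Cdkn1a and E2f1 lie furthest below 0 from E18.5 to adult, and Cdkn1b changes sign with the scaling.

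The other intervals held few calls. From E18.5 to PN2, edgeR called 0 of the 10 genes (0.0296% of all genes tested) and 0 had an unadjusted p under 0.05, and neither DESeq2 nor edgeR's exact test called any. Their log2 fold changes lay between -0.37 for E2f1 and 0.33 for Ccnd1. From PN14 to PN28 it called 0 (0.0178% of all genes), with 1 at an unadjusted p under 0.05, which was Cdkn1a, and the other tools again called 0. From PN28 to adult only E2f1 was called, where 0.521% of all genes were called and 0.361% fell. Ccnd1 and Ccnd3 had log2 fold changes of -1.51 and -1.48 there (edgeR adjusted p = 0.0644 and 0.0923), and both were called along with E2f1 by edgeR's exact test and by the Wald test of DESeq2. When genes averaging under 1 CPM were left out before the edgeR fit, 0 were called.

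The order of the 10 genes by FPKM was the same at E18.5 and PN2, running from Ccnd3, Cdkn1a and Cdk4 down through Ccnd1, Ccnd2, Rb1, Cdkn1b, E2f1 and Cdkn2c to Cdk6. At PN14, Cdk4 (37.2 ± 10.3 FPKM, SD, n = 2) and Ccnd3 (36.6 ± 11.6) led and swapped places between the mice. Cdkn1a (17.5 ± 4.97), Cdkn1b (14.9 ± 1.92) and Ccnd1 (13.1 ± 3.92) came next, with overlapping spread. Rb1 (5.91 ± 1.23), Ccnd2 (5.59 ± 0.997) and Cdkn2c (5.22 ± 1.34) formed a further group with overlapping spread, above E2f1 (2.46 ± 0.877) and Cdk6 (0.325 ± 0.106). All 10 genes were higher in replicate 2, so these SDs hold a shift that the genes share. FPKM does not include the TMM factors, which were 0.841 for replicate 1 and 1.006 for replicate 2. For Cdkn1b the log2 difference was 0.26 in FPKM and 0.01 after TMM. Apart from Cdk4 and Ccnd3 the order was the same in both mice. In the adult the order began with Cdk4, Cdkn1b and Cdkn1a, followed by Ccnd3.

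The PN14 mice differed in the same direction for all 10 genes. After TMM scaling, replicate 2 lay above replicate 1 by between 0.01 (Cdkn1b) and 0.48 (E2f1) on the log2 scale, with a median of 0.32. For 13015 genes with a mean of at least 1 CPM the median was -0.0002 and the quartiles were -0.17 and 0.19. In FPKM, to which TMM was not applied, the differences of the 10 genes ran from 0.26 (Cdkn1b) to 0.74 (E2f1). The marker sums are also in FPKM. That of 7 satellite cell markers was 26.9 in replicate 1 and 40.6 in replicate 2. Sums were 214 and 851 for 4 Schwann cell markers and 154 and 230 for 5 endothelial markers. They were 1224 and 1533 for 6 fibroblast markers and 16.75 and 20.13 for 4 macrophage markers. Replicate 2 was lower for 7 myofibre markers (85466 and 67876) and 3 erythroid markers (2092 and 1153). The part of these differences in the values of the 10 genes was not tested.

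In whole muscle, fewer cells of a type and less RNA per cell cannot be told apart. Markers of several cell types also changed with age, not all between the same stages as the 10 genes. Of all genes tested, 11.2% fell and 11.8% rose from PN2 to PN14, and 23.6% fell and 21.4% rose from E18.5 to adult. The 7 satellite cell markers (Pax7, Myf5, Cdh15, Calcr, Msc, Heyl and Vcam1) summed to 113 FPKM in the E18.5 pool, 101 in the PN2 pool, 18 in the PN28 mouse and 11.3 in the adult, with 3 called as falling from PN2 to PN14 and 7 from E18.5 to adult. The 6 fibroblast markers summed to 4522 FPKM at E18.5 and 466 in the adult (0 called from PN2 to PN14, 4 falling from E18.5 to adult). Most of the E18.5 sum was Col1a1 (2046 FPKM, 45.9 in the adult) and Col3a1 (1829, 41.1 in the adult). Dcn went from 393 to 329 FPKM and was not called (log2 fold change 0.75). The 4 macrophage markers summed to 44.3 and 10.5 FPKM (0 called from PN2 to PN14, 1 falling from E18.5 to adult). The sum of the 5 endothelial markers was 165 FPKM at E18.5 and 62.5 in the adult (0 called), that of the 4 Schwann cell markers 45.2 and 154 (2 rose), and that of 3 erythroid markers 8423 and 370 (3 fell). The erythroid sum was already 1476 FPKM in the PN2 pool. From PN2 to PN14 the log2 fold changes of the 3 erythroid markers lay between 0.77 and 0.90 (0 called). From PN2 to PN14 the endothelial list had a median log2 fold change of 0.72, and 1 of its genes, Emcn, rose. The 7 myofibre markers summed to 21672 FPKM at E18.5 and 90939 in the adult, with 2 called as rising. With library size alone, the calls from E18.5 to adult included 7 satellite cell, 5 fibroblast, 4 endothelial and 4 macrophage markers falling. With that scaling 6 myofibre markers rose, and 2 Schwann cell markers rose and 1 fell. Of all 16882 genes, 7700 then fell and 1347 rose. From PN2 to PN14 the calls included 5 satellite cell, 4 fibroblast, 2 macrophage and 2 Schwann cell markers falling. In that comparison 5 myofibre markers rose, where 4971 of all genes fell and 854 rose. No marker of these lists was at 0 in any library. The part of cell numbers in the results was not tested.

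The rest of the G1/S pathway was described from a list of 38 genes. From PN2 to PN14, 8 fell and 0 rose, with a median log2 fold change of -0.42, beside 11.2% of all genes that fell and 23.0% called. With library size alone 19 of the list fell, where 4971 of 16882 genes fell. Ccne1, which encodes the E cyclin that acts after the D cyclins, had the largest change, from 20.1 FPKM at PN2 to 1.17 and 2.13 at PN14 (log2 fold change -2.98, standard error 0.275, edgeR adjusted p = 0.00395). The log2 fold change was -1.40 for its partner kinase Cdk2, -1.49 for Ccna2 (cyclin A2, of S phase) and -2.13 for Skp2, part of the ubiquitin ligase that removes p27. It was -1.56 and -2.14 for the repressive E2F genes E2f7 and E2f8, -1.34 for Cks1b and -1.31 for Rbl1 (p107, a relative of the retinoblastoma protein).

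Other genes of the pathway were not called from PN2 to PN14. Cdkn1c was above all 10 genes in FPKM in every library but the adult, at 907 FPKM in the E18.5 pool and 496 in the PN2 pool, 87.1 and 189 in the PN14 mice, 59.99 in the PN28 mouse and 8.0 in the adult. Its log2 fold change from PN2 to PN14 was -1.23 (standard error 0.411, edgeR adjusted p = 0.0672), and from E18.5 to adult it fell, at -5.80 (edgeR adjusted p = 0.00157). Between PN2 and PN14 the log2 fold change was 0.93 for E2f6, 0.72 for Cdc37 and -0.46 for Tfdp1. From E18.5 to adult 18 of the 38 genes fell and 4 rose, beside 23.6% of all genes that fell and 21.4% that rose.

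Genes that E2F drives in S phase were followed with a list of 25. From PN2 to PN14, 18 fell and 0 rose, beside 11.2% of all genes that fell, with a list median log2 fold change of -1.54. The largest were Mcm6, a subunit of the replicative helicase (-1.98), Uhrf1, which helps copy DNA methylation (-1.98), the histone chaperone genes Chaf1b (-1.88) and Chaf1a (-1.78), and the origin licensing genes Orc1 (-1.81) and Cdt1 (-1.77). Mcm6 had 27.5 FPKM at PN2, 3.16 and 5.87 at PN14, 3.69 at PN28 and 0.31 in adult muscle. Pcna, Slbp, Rrm1 and Rpa2 were not called, with log2 fold changes of -0.92, -0.65, -0.66 and -0.03. From E18.5 to adult 22 of the 25 genes fell, with a median of -2.69, beside 23.6% of all genes that fell. With library size alone 24 of the 25 fell from PN2 to PN14, where 4971 of 16882 genes fell. From E18.5 to adult 24 also fell with that scaling, where 7700 of all genes fell.

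Since Cdkn1a is a well known target of p53, a list of 24 other p53 targets was described beside it, of which 23 were in the table. From PN2 to PN14, 6 rose and 1 fell, beside 11.8% of all genes that rose and 11.2% that fell. The list's median log2 fold change was 0.56, and the value of Cdkn1a was -2.75. Ccng1 (cyclin G1) rose from 104 FPKM at PN2 to 250 and 263 at PN14 (log2 fold change 1.96, standard error 0.424, edgeR adjusted p = 0.0214). Perp, Btg2, Aen, Fas and Gadd45a rose by 1.76, 1.43, 1.33, 1.23 and 1.09, and Pmaip1, which encodes the cell death protein Noxa, fell (log2 fold change -3.42). Phlda3, Ei24, Sesn1 and Bax were not called, at -0.08, 0.81, -0.59 and 0.02. With library size alone the list had 1 gene rising and 2 falling, where 854 of 16882 genes rose and 4971 fell. The list's median was then -0.12, so its direction depends on the scaling. It lay above the median of all genes under both scalings, and Cdkn1a lay below it under both.

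**Figure D5:**
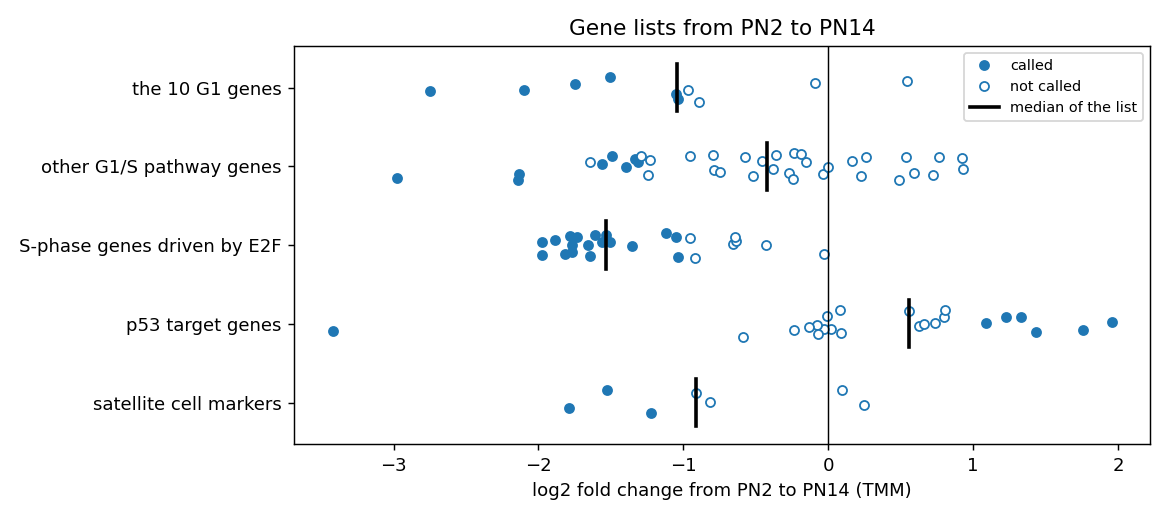
Log2 fold changes from PN2 to PN14 with TMM scaling for the 10 G1 genes, 3 pathway lists and the satellite cell markers; each point is a gene, filled where called, and black bars are medians. The medians are -1.04, -0.42, -1.54, 0.56 and -0.91 from top to bottom.

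The profiles of the 10 genes were compared by the root mean square distance between centred log2 values over the 6 libraries. Ccnd2 and Cdk4 were the closest pair, at 0.108, and Cdkn1a and Cdkn1b the most distant, at 1.86. Cdk4 and Cdk6 were 0.256 apart, Ccnd3 and E2f1 0.402, and Ccnd1 and Ccnd3 0.800. Among all 13015 genes searched, the nearest to E2f1 were Cdc6 (0.0489), BC030867 (0.0535) and Fanci (0.0787), and those to Ccnd3 were Glipr2 (0.0691), Ngfrap1 (0.0949) and Adamts14 (0.101). Ccnd1 was nearest to Gyk, Tril and Fbn1 (0.0996 to 0.115) and Cdk6 to D430020J02Rik, Ldlrad3 and 2500004C02Rik (0.0924 to 0.101). Cdkn1a had no close neighbour by comparison, with Fam122b at 0.179, Tmem200a at 0.183 and Hsf2bp at 0.219. These distances rest on 6 libraries and describe likeness only, and with a pseudocount of 1 CPM in place of 0.1 none of the neighbours of E2f1 were retained.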

How the data were processed

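The authors aligned paired-end reads to mm9 with TopHat2 2.0.5 and counted fragments on RefSeq genes with RSEM. The deposited table holds expected counts per gene, given as whole numbers and not normalized, and FPKM, which the authors scaled to gene length and library only. The column names put each library on a lane of its own, so lane and stage cannot be told apart. No paired analysis was possible, because each library came from its own pool or mouse and no label links libraries across stages.

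Counts were analysed in R 4.3.3 with edgeR 4.0.16 (TMM, filterByExpr, quasi-likelihood test), with stage as group. All 10 genes and 16882 in all passed the filter. The fit had 1 residual degree of freedom (common biological coefficient of variation 0.188), and standard errors were derived from the fold change and its F statistic. p-values were adjusted within each comparison by Benjamini-Hochberg over all genes, and the script was tested on simulated counts. Alternatives were library size alone, DESeq2 1.42.0 size factors or Wald test, edgeR's exact test, other filters and either PN14 library left out.

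The genes, lists, comparisons and naming rules were chosen with earlier results of these data known. From each list, up to 6 called genes with the largest change from PN2 to PN14 and up to 4 abundant genes not called (at least 10 FPKM in some library) were named, and other genes named were chosen after their values were seen. For genes whose log2(CPM + 0.1) spanned at least 2, the 3 nearest genes were named, except for Ccnd2 and Cdk4, whose nearest genes, like 1 erythroid marker, are not reported here. The sum over all 7 CDK inhibitor genes was an alternative chosen after seeing the data. Gene models came from GENCODE M1 and sequence from the NCBIM37 (mm9) genome. Figures were drawn with matplotlib 3.10.9 in Python 3.11.15.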

Additional observations from a re-analysis of the deposited data

How the results depend on the processing

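The number of the 10 genes called from PN28 to adult was 1, and it became 3 with library size alone, with no filter, with edgeR's exact test and with DESeq2's Wald test, and 0 when genes averaging under 1 CPM were left out. From PN28 to adult, 727 of all 16882 genes fell and 141 rose with library size alone, against 61 and 27 with TMM. The counts over all genes with the other settings are not reported here. From PN14 to PN28 the number of the 10 genes called went from 0 to 1 with library size alone. Of all genes, 168 then fell and 94 rose, against 0 and 3 with TMM. With that scaling, the G1/S list had 19 calls from PN2 to PN14 in place of 8, and the p53 list 3 in place of 7. Over all 16882 genes, 4971 fell and 854 rose from PN2 to PN14 in that setting. Library size alone also turned the sign of Cdkn1b from PN2 to PN14 (-0.11) and from E18.5 to adult (-0.044), and of Cdkn2c from PN14 to PN28 (-0.18) and from E18.5 to adult (-0.56). With either PN14 library left out, the value from PN2 to PN14 ranged from -0.233 to 0.038 for Cdkn2c, and over PN14 to PN28 it ranged from -0.062 to 0.189 for Cdkn2c, from -0.092 to 0.058 for Rb1 and from -0.235 to 0.23 for E2f1. Over PN2 to PN14, Cdk4 ranged from -1.21 to -0.89 and Ccnd2 from -1.11 to -0.999, both under the 2-fold rule without replicate 1. These fits have no residual degrees of freedom and no test. The causes were not tested. By CPM in place of FPKM, the Ccnd3 share of D cyclins ran from 70.7% at E18.5 to 38.8% in the adult. Depth limits mainly Cdk6 and adult E2f1, and 4 of the 5 stages have 1 library.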

Other observations

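Of the 38 genes of the G1/S list, 4 rose from E18.5 to adult, beside 21.4% of all genes tested, and they are named after their values were seen. Rbl2, the gene for the retinoblastoma relative p130 that is known for its role in resting cells, had 6.74 FPKM in the E18.5 pool and 6.08 in the PN2 pool, 7.86 and 6.61 in the PN14 mice, 9.62 in the PN28 mouse and 14.4 in the adult (log2 fold change from E18.5 to adult 2.12, standard error 0.298, edgeR adjusted p = 0.00288). E2f6, a repressive E2F, went from 31.6 to 72.3 FPKM (2.23, standard error 0.281) and Fbxo31, which encodes an F-box protein, from 13.7 to 40.6 (2.60, standard error 0.306). The INK4 inhibitor gene Cdkn2b went from 0.16 to 1.02 FPKM (3.68, standard error 0.614). With library size alone the list also had 4 genes rising in this comparison, where 1347 of 16882 genes rose.

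Among Rb1 and its relatives, Rbl1 went from 5.43 FPKM at E18.5 to 0.72 in the adult and Rb1 from 16.7 to 4.41, while Rbl2 was the highest of these genes in the adult library. With TMM the log2 fold change was -2.05 for Rbl1, which was called, and -0.90 for Rb1, which was not. The differences between these courses were not tested.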
